A study of Rattus norvegicus with 15 samples.

Results

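Transcript levels of 8 genes of reactive gliosis (Gfap, Vim, Nes, Serpina3n, Lcn2, Cd44, Edn2 and Ednrb) were followed in rat retina after chemical injury and after intravitreal cell transplantation. The genes were chosen by symbol, all 8 had a row among the 20375 genes listed, and all 8 passed the filter on low values, which left 15424 genes for testing. The levels are regularised log2 (rlog) values, a DESeq2 transform of counts that shrinks differences between libraries for genes with few reads. A difference of 1 is therefore a fold of 2 on that scale, and an rlog level can be compared between libraries but not between genes, since it is not corrected for transcript length.

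Müller glia span the whole thickness of the retina, and together with the astrocytes of the nerve fibre layer they answer injury with a stereotyped change known as reactive gliosis. They fill with intermediate filaments, built from the subunits glial fibrillary acidic protein (Gfap), vimentin (Vim) and nestin (Nes). They also secrete acute phase proteins such as the serine protease inhibitor Serpina3n and the iron-siderophore carrier lipocalin 2 (Lcn2), and they express Cd44, the receptor for hyaluronan. Endothelin 2 (Edn2) is a peptide known to be made by stressed photoreceptors, and its receptor Ednrb is carried by Müller glia and astrocytes, so that the pair is known as a signal from photoreceptor to glia.

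The study used wild type Sprague-Dawley rats labelled as postnatal week 12, with 3 libraries in each of 5 groups. Retinas of all groups, NT included, are labelled as taken on day 31 after transplantation, while the study's methods count days from sodium iodate, which was given after the cells or the vehicle had been injected. NT retinas were healthy and untreated. All other groups were given sodium iodate (NaIO3) systemically at 40 mg/kg, an oxidant that kills the retinal pigment epithelium and then the photoreceptors that depend on it. Sham eyes were injected with the vehicle, Hank's balanced salt solution, without cells, whereas the MSC group was given human mesenchymal stem cells from Wharton's jelly and the MSC-EPO group the same kind of cells carrying a lentiviral human erythropoietin gene. The DPSC group was given cells of that label, whose source is not given in the sources used here. Rats with xenografts were given dexamethasone at 2 mg/kg before surgery and cyclosporin at 10 mg/kg per day afterwards, so that human cells and immunosuppression cannot be told apart in any comparison of MSC or MSC-EPO with NT or sham, and for DPSC the labels do not state whether the drugs were given. The labels do not say that the 3 libraries of a group came from separate animals, and p-values then measure the spread between these libraries only. Each library is whole retina, in which a change in the number of cells of a type and a change in RNA per cell cannot be told apart.

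Some libraries stood apart from their labelled groups. Each NT and each sham library had its nearest neighbour over all tested genes inside its own group. Within NT, however, replicate 3 was the lowest for 7 of the 8 gliosis genes, against 41.5% of all tested genes. In all, 8 of the 15 libraries, all of them from the cell groups, were nearest to a library of another group. The library labelled MSC-EPO replicate 3 was nearest to DPSC replicate 3 and was the lowest of its group for 8 of the 8 gliosis genes, against 47.1% of all tested genes. The library labelled DPSC replicate 2 was nearest to MSC-EPO replicate 1 and was the highest of its group for 7 of the 8, against 37.8% of tested genes. No library was regrouped, the 6 other libraries whose nearest neighbour had another label were kept, and results that rest on these 2 libraries are given with and without both of them, an alternative chosen after the data were seen. Leaving them out raises the MSC-EPO mean of each of the 8 genes and lowers the DPSC mean of 7 of them by construction. No p is therefore given where a group that lost a library met the call rule for a change in that direction. Leaving them out also lowers the shared estimate of the spread for genes in which they depart from their groups, such as Nes and Serpina3n. Calls gained in this way by groups that kept all libraries are therefore given without p as well. Median rlog values ran from 8.63 to 8.82 over the libraries, and the read depth of each library is unknown here because rlog values carry no counts.

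The promoters of 3 genes are shown, that of Gfap, which had the largest increase in sham, and those of Serpina3n and Lcn2, the 2 members that held a motif of the transcription factors known for reactive gliosis and the acute phase response, namely STAT factors, NF-kB and AP-1. The 300 bases from 250 before to 50 after the annotated start were taken from RefSeq on build GRCr8, where all 8 genes matched, and were searched on both strands for TTCNNNGAA (STAT), for GGG and TTCC separated by 3 bases of any kind (NF-kB) and for TGANTCA (AP-1). None of these patterns contains another. Matches are in capitals. Gfap (chr10:88361612-88361911, minus strand) held none of the 3 motifs, Serpina3n (chr6:129088142-129088441, plus strand) held 1 STAT motif starting at position -123 from the gene start, and Lcn2 (chr3:36081731-36082030, minus strand) held 1 NF-kB motif at position -242, read on the opposite strand. The other 5 members, Nes among them, held none of the 3 motifs.
Gfap: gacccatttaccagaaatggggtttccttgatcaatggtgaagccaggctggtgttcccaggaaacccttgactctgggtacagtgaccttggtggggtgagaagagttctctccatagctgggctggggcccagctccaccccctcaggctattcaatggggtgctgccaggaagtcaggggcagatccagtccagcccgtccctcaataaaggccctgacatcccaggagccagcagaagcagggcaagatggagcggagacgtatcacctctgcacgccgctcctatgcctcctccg
Serpina3n: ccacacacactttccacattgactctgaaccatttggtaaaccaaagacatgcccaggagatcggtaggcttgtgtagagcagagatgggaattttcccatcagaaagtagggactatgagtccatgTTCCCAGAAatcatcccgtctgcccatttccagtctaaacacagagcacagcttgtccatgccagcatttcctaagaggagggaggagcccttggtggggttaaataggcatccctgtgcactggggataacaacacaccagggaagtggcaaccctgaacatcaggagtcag
Lcn2: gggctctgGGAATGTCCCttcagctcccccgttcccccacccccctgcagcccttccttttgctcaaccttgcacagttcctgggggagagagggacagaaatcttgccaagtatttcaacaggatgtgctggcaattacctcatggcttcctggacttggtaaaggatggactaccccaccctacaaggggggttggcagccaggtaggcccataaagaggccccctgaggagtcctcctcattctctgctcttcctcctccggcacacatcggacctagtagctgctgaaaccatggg
The STAT motif was present in 1 of the 8 members against 8.87% of the 33469 promoters in the table, the NF-kB motif in 1 of the 8 against 5.37%, and the AP-1 motif in 0 of the 8 against 7.33%. A match describes the letters of this window and is not a binding site, and its absence says nothing of the factor.

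The first comparison asked what sodium iodate injury with a vehicle injection did to the gliosis genes. Gfap, Lcn2 and Edn2 rose in sham over NT, by 10.4-fold, 2.64-fold and 2.33-fold. Thus 3 of the 8 members passed the test (limma, Benjamini-Hochberg adjusted p under 0.05 over all tested genes and a fold over 2), against 0.266% of all tested genes called higher. All 8 members had every sham library above every NT library, which was so for 16.6% of tested genes, and the median difference of the 8 was 1.17 on the log2 scale against 0 over all genes. The other 5 did not pass. With MSC-EPO replicate 3 and DPSC replicate 2 left out, 5 of the 8 passed (0.616% of tested genes), with Nes and Ednrb added. Neither of these libraries belongs to sham or NT, but all groups share one estimate of the spread, which had to fall for Nes.

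**Figure D1:**
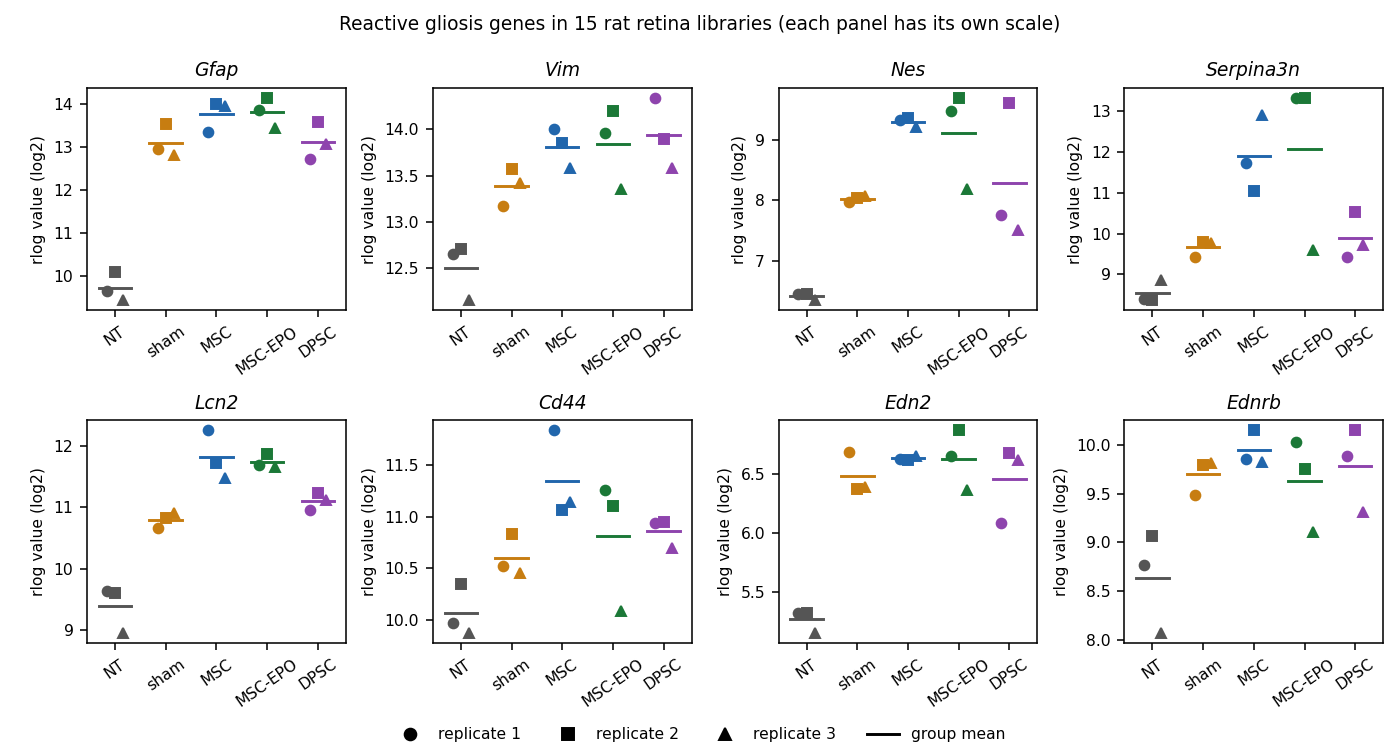
Levels of the 8 gliosis genes in each of the 15 retina libraries. The horizontal axis gives the group and the vertical axis the rlog value (log2) on a separate scale for each gene, points are libraries with the marker giving the replicate number, and bars are group means. Every NT library lies under every sham library for all 8 genes, and MSC-EPO replicate 3 is the lowest of its group in each panel.

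Gfap, the filament protein most used as a sign of glial stress, had the largest increase of any tested gene in sham (rank 1 of 15424). Its rlog values were 9.64, 10.08 and 9.43 in NT and 12.95, 13.53 and 12.80 in sham. The 2 groups were separated by far more than the spread within either, with a log2 difference of 3.38 (SE 0.28, adjusted p = 0.000403). Gfap was 13.33, 13.99 and 13.94 in MSC, 13.84, 14.13 and 13.43 in MSC-EPO, and 12.71, 13.58 and 13.06 in DPSC. The DPSC libraries lay within or close to the sham range, and 2 of the 3 libraries of both MSC and MSC-EPO lay above it. Against NT, Gfap rose by 4.04 on the log2 scale in MSC (16.4-fold), 4.08 in MSC-EPO (17-fold) and 3.4 in DPSC (10.5-fold), with adjusted p of 4.79e-05, 2.91e-05 and 0.000375 in the limma fit.

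Vimentin, the filament partner that resting Müller glia already contain, differed less. Vim stood at 12.65, 12.70 and 12.15 in NT and at 13.17, 13.57 and 13.42 in sham. The groups did not overlap, but the log2 difference of 0.89 (SE 0.24, limma adjusted p = 0.12) did not pass. Vim was 14, 13.85 and 13.58 in MSC, 13.96, 14.20 and 13.35 in MSC-EPO, and 14.34, 13.90 and 13.58 in DPSC. Against NT it rose by 1.31 in MSC, 1.34 in MSC-EPO and 1.44 in DPSC on the log2 scale (adjusted p = 0.00414, 0.00428 and 0.00906, limma). DPSC was the group with the highest mean of Vim, a place it held for none of the other 7 genes. Its replicate 1, at 14.34, was the highest of all libraries for Vim.

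Nestin is the filament of neural progenitors and is scarce in resting adult glia. Nes was 6.45, 6.44 and 6.34 in NT, 7.97, 8.04 and 8.07 in sham, and 9.33, 9.36 and 9.21 in MSC. These 3 groups formed separate steps, each with a range of at most 0.14 between its libraries. The MSC-EPO libraries held 9.49, 9.70 and 8.18 and the DPSC libraries 7.76, 9.61 and 7.51. In the last 2 groups a single library departed from its fellows by more than 1 unit, in MSC-EPO downwards towards sham and in DPSC upwards towards MSC, and these are the libraries labelled MSC-EPO replicate 3 and DPSC replicate 2. The log2 difference of sham from NT was 1.62 with an SE of 0.46 (limma adjusted p = 0.144). With both libraries left out the same difference had an SE of 0.09 and met the call rule. The SE had to fall, since these 2 libraries hold the outlying values of Nes. Nes rose over NT by 2.89 in MSC and 2.72 in MSC-EPO (adjusted p = 0.00213 and 0.00302), while the difference of 1.88 in DPSC did not pass (adjusted p = 0.05 after rounding).

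Among the secreted proteins, Serpina3n varied most, over 4.97 log2 units from the lowest to the highest library, more than 99.2% of tested genes. Its values were 8.39, 8.36 and 8.85 in NT, 9.43, 9.79 and 9.76 in sham, and 9.43, 10.54 and 9.72 in DPSC. The MSC libraries held 11.73, 11.05 and 12.91, and the MSC-EPO libraries 13.32, 13.33 and 9.59. Hence all 3 MSC libraries and 2 of 3 MSC-EPO libraries lay above every sham and every DPSC library, while MSC-EPO replicate 3 lay inside the sham range. The sham difference from NT of 1.13 (SE 0.79, limma adjusted p = 0.66) did not pass, whereas Serpina3n rose over NT by 3.37 in MSC (10.3-fold, adjusted p = 0.0128) and by 3.55 in MSC-EPO (11.7-fold, adjusted p = 0.0133). The MSC-EPO call was lost without MSC-EPO replicate 2 (2.92, adjusted p = 0.0555) and became 27.7-fold with MSC-EPO replicate 3 and DPSC replicate 2 left out. Serpina3n has closely related neighbours in the serpin family, among which shared reads may be divided, so its level is uncertain to that extent.

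Lipocalin 2 followed the groups with little spread. Lcn2 was 9.63, 9.60 and 8.95 in NT and 10.66, 10.82 and 10.91 in sham, a log2 difference of 1.4 (SE 0.2, limma adjusted p = 0.00674). It was 12.26, 11.73 and 11.49 in MSC, 11.69, 11.88 and 11.66 in MSC-EPO, and 10.96, 11.23 and 11.13 in DPSC. The libraries thus ran in the order NT, sham, DPSC and then MSC with MSC-EPO, without overlap between those steps, and here MSC-EPO replicate 3 did not stand apart from its group. Lcn2 rose over NT by 2.43 in MSC (5.4-fold), 2.35 in MSC-EPO (5.1-fold) and 1.71 in DPSC (3.27-fold), with limma adjusted p of 0.000114, 7.61e-05 and 0.00143. The Lcn2 promoter shown above is the member promoter that held the NF-kB motif, and the Serpina3n promoter the one that held the STAT motif.

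Cd44, the hyaluronan receptor, differed least between sham and NT. It was 9.97, 10.35 and 9.88 in NT and 10.52, 10.83 and 10.46 in sham, a log2 difference of 0.54 (SE 0.28, limma adjusted p = 0.481). Values were 11.83, 11.06 and 11.14 in MSC, 11.26, 11.10 and 10.09 in MSC-EPO, and 10.94, 10.95 and 10.70 in DPSC. MSC-EPO replicate 3 lay inside the NT range, the one instance among the 8 genes of overlap between a group given sodium iodate and NT. Cd44 rose over NT in MSC by 1.28 (2.42-fold, adjusted p = 0.00908). The differences of 0.75 in MSC-EPO (adjusted p = 0.105) and 0.8 in DPSC (adjusted p = 0.157) did not pass, and the former became 1.11 and met the call rule with MSC-EPO replicate 3 and DPSC replicate 2 left out.

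The endothelin ligand lay at overlapping levels in all groups given sodium iodate. Edn2 was 5.32, 5.32 and 5.15 in NT and 6.69, 6.37 and 6.39 in sham, a rise of 1.22 (SE 0.17, limma adjusted p = 0.00577). It was 6.63, 6.62 and 6.65 in MSC, 6.65, 6.87 and 6.36 in MSC-EPO, and 6.08, 6.68 and 6.62 in DPSC. The ranges of these 4 groups overlapped, and each lay wholly above NT. Edn2 rose over NT by 1.37 in MSC, 1.36 in MSC-EPO and 1.2 in DPSC (adjusted p = 0.000569, 0.00043 and 0.0039, limma).

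Its receptor Ednrb had the widest spread in NT of the 8 genes, at 8.77, 9.06 and 8.07, and held 9.49, 9.79 and 9.82 in sham. The log2 difference of 1.07 (SE 0.28, limma adjusted p = 0.114) did not pass with all libraries. It met the call rule with MSC-EPO replicate 3 and DPSC replicate 2 left out. Ednrb was 9.86, 10.15 and 9.83 in MSC, 10.03, 9.75 and 9.11 in MSC-EPO, and 9.89, 10.15 and 9.31 in DPSC. These ranges lay above NT and overlapped or adjoined that of sham. It rose over NT in MSC by 1.31 (2.48-fold, adjusted p = 0.00856). In MSC-EPO the adjusted p was 0.0393 but the fold of 1.99 was short of 2, and in DPSC the difference of 1.15 had an adjusted p of 0.0504.

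In all, 8 of the 8 members rose over NT in MSC, against 5.71% of tested genes called higher there. In MSC-EPO 6 of 8 rose, Cd44 and Ednrb being the exceptions (2.33% of tested genes), and in DPSC 4 of 8, namely Gfap, Vim, Lcn2 and Edn2 (0.525% of tested genes). These comparisons and that of sham share the NT libraries and are not independent of one another. The counts became 8 of 8 in MSC (6.21% of tested genes), 8 of 8 in MSC-EPO (4.8%) and 5 of 8 in DPSC (0.791%) with MSC-EPO replicate 3 and DPSC replicate 2 left out, the added DPSC member being Nes.

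**Figure D2:**
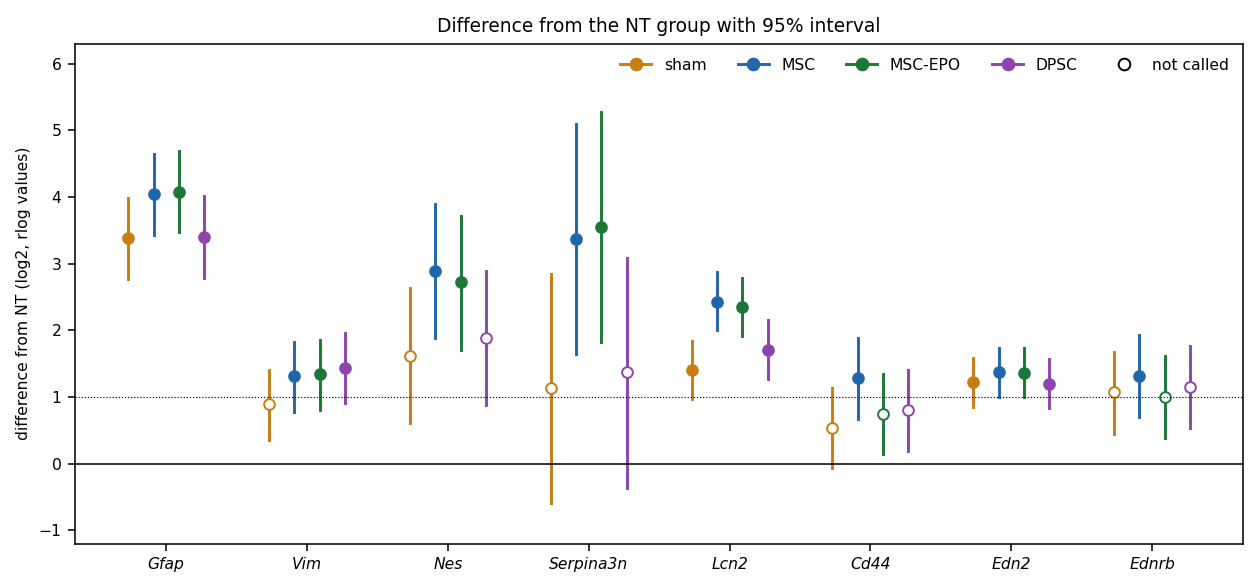
Difference of the sham, MSC, MSC-EPO and DPSC groups from NT for the 8 gliosis genes. The vertical axis is the difference in mean rlog value (log2), points are limma estimates with their 95% intervals, filled where the test was passed, and the dotted line marks a fold of 2. Gfap stands highest in sham at 3.38, and its points are filled in all 4 groups.

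The second comparison asked whether cell transplantation altered the gliosis genes beyond the injured sham retina. With all 15 libraries, none of the 8 members passed the test against sham in MSC, in MSC-EPO or in DPSC, where the share of tested genes called higher was 0, 0 and 0 percent. The study's own DESeq2 analysis reported many genes higher than sham in MSC and in MSC-EPO at the same thresholds. The shares of 0 therefore belong to this limma fit of rlog values, in which all groups share one estimate of the spread. At an unadjusted p under 0.05 in the same limma fit, 5 members were higher in MSC (9.49% of tested genes), 4 in MSC-EPO (3.19%) and 1 in DPSC (0.985%). Members whose libraries all lay above sham numbered 6 in MSC (13.1% of tested genes), 2 in MSC-EPO (7.44%) and 2 in DPSC (4.75%). The median log2 difference of the 8 from sham was 0.7 in MSC, 0.58 in MSC-EPO and 0.25 in DPSC.

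Serpina3n had the widest separation of means from sham, at 2.24 in MSC (95% interval 0.52 to 3.96) and 2.42 in MSC-EPO (0.7 to 4.14) on the log2 scale, but adjusted p was 0.227 and 0.453. For Nes the differences were 1.27 (0.27 to 2.28) and 1.1 (0.09 to 2.1). For Lcn2, which had the smallest p of the 8 in both, they were 1.03 (SE 0.2, limma adjusted p = 0.134) and 0.95 (SE 0.2, adjusted p = 0.145). Gfap was higher by 0.66 in MSC and 0.71 in MSC-EPO, with its libraries overlapping those of sham in both. The endothelin pair differed from sham by 0.15 (Edn2, -0.22 to 0.52) and 0.25 (Ednrb, -0.37 to 0.86) in MSC and by 0.14 (-0.22 to 0.51) and -0.07 (-0.69 to 0.54) in MSC-EPO.

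By the median difference of the members DPSC lay closest to sham, though not for Vim, Cd44 or Ednrb. Gfap differed from sham by 0.02 (95% interval -0.59 to 0.63), Nes by 0.26 (-0.74 to 1.27) and Serpina3n by 0.24 (-1.49 to 1.96) in the log2 fit, intervals that still hold folds over 2 for the last 2 genes. Vim was the member with the smallest p, higher by 0.55 (unadjusted p = 0.0407 and adjusted p = 1, limma). Taking the mean of the 3 cell groups against sham, 0 of 8 members passed (0% of tested genes called higher), 4 had an unadjusted limma p under 0.05 in the higher direction (5.8% of tested genes), and Lcn2, higher by 0.76, was the 1 member whose cell libraries all lay above every sham library (1.27% of tested genes).

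These results depended on the libraries labelled MSC-EPO replicate 3 and DPSC replicate 2. With both left out, 3 members met the call rule over sham in MSC (1.66% of tested genes). These were Nes (1.27), Serpina3n (2.24, 4.72-fold) and Lcn2 (1.03). The MSC and sham libraries are the same in both fits, so the differences are unchanged. The SE went from 0.46 to 0.09 for Nes and from 0.79 to 0.36 for Serpina3n. It had to fall there, since the libraries left out hold outlying values of these genes. For Lcn2 the SE was 0.2 with all libraries and 0.21 without both. When the fit held the MSC and sham libraries alone, Nes passed by itself (limma adjusted p = 0.018). In MSC-EPO, now 2 libraries and without the lowest of its group, the differences from sham were 1.57 for Nes and 3.66 for Serpina3n (12.7-fold), and these 2 met the call rule, against 0.506% of tested genes. In DPSC, also 2 libraries, 0 of 8 passed (0.149% of tested genes called higher), and the signs of Gfap, Nes, Serpina3n and Ednrb turned, to -0.21, -0.39, -0.08 and -0.1, with limma adjusted p from 0.256 to 0.999. For the mean of the cell groups Serpina3n alone met the call rule (1.94, against 0.363% of tested genes).

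**Figure D3:**
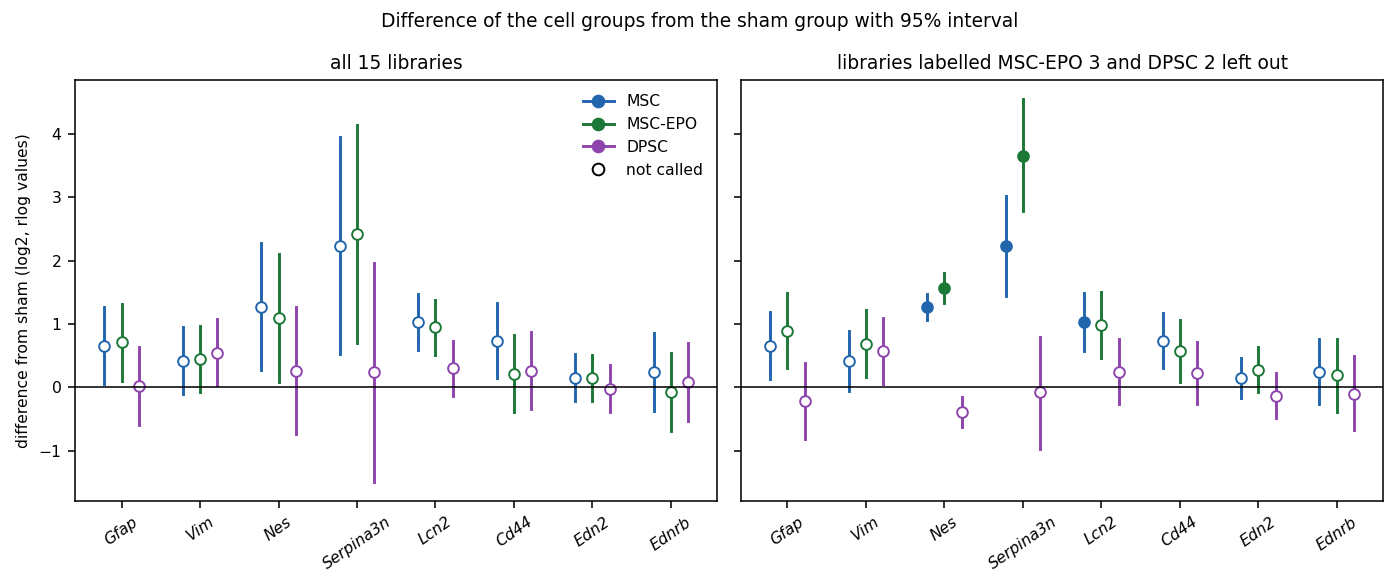
Difference of the MSC, MSC-EPO and DPSC groups from sham for the 8 gliosis genes, with all 15 libraries on the left and without MSC-EPO replicate 3 and DPSC replicate 2 on the right. The vertical axis is the difference in mean rlog value (log2), points are limma estimates with 95% intervals, filled where the test was passed. No point is filled on the left, and on the right 3 MSC points and 2 MSC-EPO points are filled.

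The third comparison set the cell groups beside each other. No member passed between MSC and MSC-EPO (limma, 0% of tested genes called higher and 0% lower), and 0 of the 8 had an unadjusted p under 0.05 (2.83% of tested genes higher and 0.966% lower in MSC). The 95% intervals of MSC minus MSC-EPO were narrowest for Edn2 (-0.36 to 0.37) and widest for Serpina3n (-1.9 to 1.54), so that a fold of 2 in either direction was not covered for Gfap (-0.65 to 0.56), Vim (-0.55 to 0.5), Lcn2 (-0.35 to 0.52), Edn2 and Ednrb (-0.3 to 0.93), and was covered in at least 1 direction for Nes, Serpina3n and Cd44. With all libraries the Serpina3n difference was -0.18 on the log2 scale. With MSC-EPO replicate 3 and DPSC replicate 2 left out, it was -1.42 (-2.31 to -0.54), which did not pass in limma (adjusted p = 0.999). MSC-EPO replicate 3 was the lowest of its group for this gene, so the gap had to widen.

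DPSC tended to the lower side of the other cell groups without passing the test. Against MSC, 0 of 8 passed (limma, 0% of tested genes called lower), and 4 members (Gfap, Nes, Serpina3n and Lcn2) were lower at an unadjusted p under 0.05, against 5.78% of tested genes. Against MSC-EPO, 0 of 8 passed (0% called lower), and 3 members (Gfap, Serpina3n and Lcn2) were lower at that level, against 0.901% of tested genes. Serpina3n differed most, by -2 from MSC (95% interval -3.72 to -0.28) and by -2.18 from MSC-EPO (-3.9 to -0.46), the latter the lowest rank of all 15424 genes by difference. With MSC-EPO replicate 3 and DPSC replicate 2 left out, the DPSC differences of Nes and Serpina3n were -1.67 and -2.32 from MSC and -1.96 and -3.75 from MSC-EPO, and both genes met the call rule (1.43% and 0.61% of tested genes called lower). The libraries left out were the highest of DPSC and the lowest of MSC-EPO for both genes, so the gap had to widen. The 2 DPSC libraries that remain are those with the highest levels of lens markers, 5.62 and 4.82 above NT, against -0.62 and 0.34 in the 2 MSC-EPO libraries, so that label and lens level cannot be told apart there.

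Other genes of the gliosis programme gave the members a setting. Of 8 further genes known to be raised in reactive astrocytes of many kinds (the pan-reactive genes), 8 had all sham libraries above NT against 16.6% of all tested genes, and 1 rose in sham (0.266% of tested genes), Timp1, an inhibitor of matrix metalloproteinases (1.75, limma adjusted p = 0.0142). Over NT, 7 of the 8 rose in MSC (5.71% of tested genes), 6 in MSC-EPO (2.33%) and 4 in DPSC (0.525%). The same shares stand behind the counts of higher genes in the lists that follow. Timp1, Osmr, the oncostatin M receptor subunit, and Cp, the copper-binding ferroxidase ceruloplasmin, rose in all 3, by 2.29, 2.57 and 2.55 in MSC. Hspb1, named after its values were seen, also rose in MSC (1.72) and in DPSC (2.26). Its mean in MSC-EPO was 8.85, against 7.01 in NT.

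The gp130 cytokine pathway acts through the kinase JAK and the factor STAT3, and is known to raise Gfap in Müller glia. Of its 13 listed genes 11 were tested. Socs3, the feedback inhibitor that STAT3 induces, rose in sham by 1.72 (3.28-fold, limma adjusted p = 0.0149) and in MSC, MSC-EPO and DPSC by 2.39, 2.35 and 1.91 over NT. Stat3 itself differed in sham by 0.94, under the fold threshold though its adjusted p was 0.00606, and rose in MSC by 1.19 and in MSC-EPO by 1.01. In all 1, 5, 4 and 2 of the 11 rose over NT in sham, MSC, MSC-EPO and DPSC, and 0 of 11 passed against sham in any cell group with all libraries. The ligands Il6 and Osm lay under the filter on low values.

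Of 5 remaining endothelin genes (the other ligands, the receptor Ednra and the converting enzymes), 0 passed the limma test over NT in sham, MSC, MSC-EPO or DPSC, but Ednra had all libraries above NT in each. It differed by 0.32 in sham (adjusted p = 0.462), 0.62 in MSC (adjusted p = 0.021), 0.59 in MSC-EPO (adjusted p = 0.034) and 0.55 in DPSC (adjusted p = 0.0941), short of the fold threshold in all 4. Of 6 other genes of the filament network, such as Synm and Plec, which link and anchor filaments, 0 passed over NT in the same 4 groups. Of 7 tested genes that make, degrade or bind hyaluronan or are ligands of Cd44, 0 passed over NT in sham or DPSC, 2 rose in MSC and 1 in MSC-EPO. The former are the hyaluronan synthase Has2 (1.04) and osteopontin, Spp1 (1.55), and the latter is Spp1 (1.47), which were named after their values were seen.

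Astrocyte lists from brain injury, known as A1 (after inflammation) and A2 (after ischaemia), were also counted. Of 9 A1 genes, 1, 6, 4 and 2 rose over NT in sham, MSC, MSC-EPO and DPSC, with complement C3 rising in sham by 2.14 (limma adjusted p = 0.0499) and in MSC by 3.64. Of 12 A2 genes, 0, 1, 1 and 0 rose. Many A1 genes are also made by leukocytes.

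Markers of other cells moved beside the gliosis genes. Of 11 leukocyte markers, 0 passed over NT in sham, 11 rose in MSC, 7 in MSC-EPO and 0 in DPSC. All except Cd3e, Cd3d and Cd8a nevertheless had every sham library above NT (16.6% of tested genes). The largest of these differences was 1.56 for Itgam (limma adjusted p = 0.146). The mean level of the 11 markers relative to NT ran from 0.56 to 1.12 in the sham libraries and 1.59 to 3.71 in MSC. It was 1.22 to 2.12 in MSC-EPO and 0.64 to 1.84 in DPSC, with DPSC replicate 2 the highest of its group. Leukocytes also make Cd44, Vim and Lcn2, and the part of leukocytes in the differences of the gliosis genes was not tested. The study's methods list CD44 among the markers of the human MSC. Human cells were also found on MSC-EPO retinas by staining at day 31. Reads were mapped to the rat reference alone, and the part of grafted human cells in the levels of the gliosis genes was not tested. Of 7 neutrophil markers only Csf3r was tested, since Mpo, S100a8, S100a9 and Camp lay under the filter on low values and Elane and Ctsg had no row. Csf3r, the receptor for granulocyte colony-stimulating factor, had all sham libraries above NT (0.59, limma adjusted p = 0.168) and rose in MSC (1.05, adjusted p = 0.00279). It differed from NT by 0.84 in MSC-EPO (adjusted p = 0.0103) and 0.48 in DPSC (adjusted p = 0.186). The part of neutrophils in the level of Lcn2 was not tested.

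Of 9 photoreceptor markers, 9 had all sham libraries below NT (15.3% of tested genes) and 0 passed on both criteria in sham (0.0259% of tested genes called lower), while 8 fell in MSC (0.985%), 9 in MSC-EPO (1.24%) and 3 in DPSC (0.259%). Their mean level ran from -0.86 to -0.65 in sham, -1.5 to -1.33 in MSC, -1.78 to -1.43 in MSC-EPO and -1.58 to -0.79 in DPSC. The part of a lower share of photoreceptor RNA in the differences of the gliosis genes was not tested. Müller glia markers were present in every group, and 0 of 8 passed over NT in sham, MSC, MSC-EPO or DPSC, but they did not move as one. Slc1a3, the glutamate transporter, and Sox9, a glial transcription factor, had all sham libraries above NT (0.47 and 0.34, limma adjusted p = 0.323 and 0.486), as did 16.6% of tested genes. Their MSC libraries also all lay above NT (0.81 and 0.7, limma adjusted p = 0.0126 and 0.0183). Rlbp1, the retinaldehyde carrier, had all sham libraries below NT (-0.24, adjusted p = 0.72), as did 15.3% of tested genes. Its MSC libraries also all lay below NT (-0.69, adjusted p = 0.0288). The mean level of the Müller glia markers, -0.16 to 0.28 over the libraries, therefore averages opposite differences.

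Of the 4 astrocyte markers, Pax2 lay under the filter, at 2.70 to 2.87. The other 3 had all sham libraries above NT, against 16.6% of tested genes. Their differences were 0.61 for S100b, 0.71 for Pdgfra and 0.19 for Aldh1l1, of which 0 passed in limma. Pdgfra, a growth factor receptor, rose in MSC-EPO (1.13, limma adjusted p = 0.00425). The mean level of these 3 astrocyte markers was 0.4 to 0.65 above NT in sham and 0.5 to 0.72 in the libraries of the cell groups. All 7 tested endothelial markers also had every sham library above NT (16.6% of tested genes), at a mean level of 0.52 to 0.55, with 0 passing. Their level was -0.08 to 0.81 in the cell groups. The part of astrocytes or vessels in the differences of the gliosis genes was not tested. Over NT, 0 endothelial, pericyte, mesenchymal or lens markers passed in any of the 4 groups. In MSC, Rpe65 and Rdh5 of 6 retinal pigment epithelium markers fell (-1.61 and -1.77), Myoc of 6 tested markers of cornea, iris and ciliary body fell (-2.51), and Mki67 and Top2a of 5 proliferation genes rose (2.9 and 2.93). Krt12, a corneal keratin, fell in MSC-EPO (-1.96). These were named after their values were seen, and their part in the differences of the gliosis genes was not tested.

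Lens markers stood high in 3 libraries, by 5.62 and 4.82 above NT in DPSC replicates 1 and 3 and by 3.81 in MSC-EPO replicate 3, while DPSC replicate 2 was at -0.77. In Serpina3n and Nes these 3 libraries were the lowest of the cell groups. In Vim, DPSC replicate 1 was the highest of all libraries (14.34) and MSC-EPO replicate 3 the lowest of the cell groups (13.35). The part of lens tissue in the levels of these genes was not tested.

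**Figure D4:**
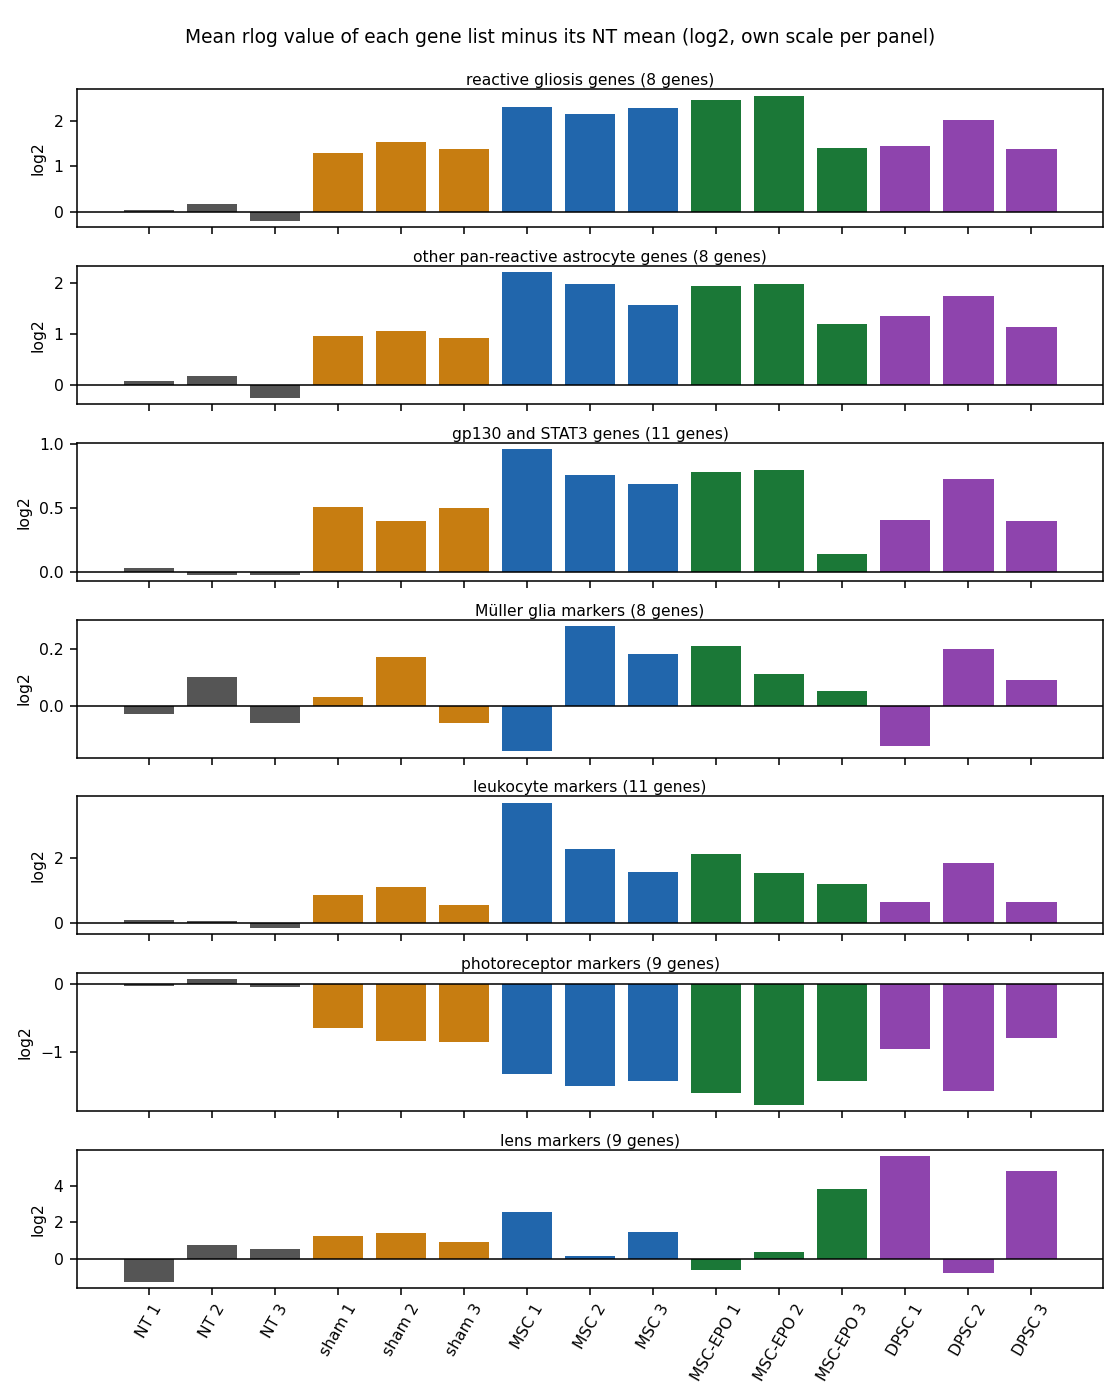
Mean rlog value of each gene list minus its NT mean (log2, vertical axis, on a separate scale for each list) in the 15 libraries (horizontal axis). Bars are single libraries, coloured by group, starting at 0. The gliosis genes run from 1.41 to 2.56 in MSC-EPO and from 1.39 to 2.01 in DPSC, with replicate 3 the lowest of MSC-EPO and replicate 2 the highest of DPSC.

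The 8 genes varied together over the 15 libraries, with Pearson r between 0.61 (Ednrb and Serpina3n) and 0.96 (Edn2 and Gfap). The libraries share the 5 groups, so that these values hold the differences between groups, and they are given as a description of likeness. By the same measure over all tested genes, the 3 genes most like Gfap were Adamts4 (r = 0.972), Fam217b (0.967) and Scara3 (0.967). Those most like Nes were Cp (0.985), Mmp19 (0.98) and Map4k4 (0.977), and those most like Serpina3n were Zbtb7c (0.918), Kcnj15 (0.913) and Scn9a (0.9). Edn2 was most like Mlf1 (0.987), Kcng4 (0.977) and Naa35 (0.974), and Lcn2 most like Shisa5 (0.972), Pdlim4 (0.972) and Tnfrsf1a (0.968), whereas the best match was 0.955 for Vim (Carhsp1), 0.963 for Cd44 (Stk10) and 0.948 for Ednrb (Pld1).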

How the data were processed

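Whole rat retina was measured by RNA sequencing (stranded mRNA libraries, paired-end reads) in 15 libraries of 5 groups, assigned by sample title. The authors quantified transcripts with Salmon 1.1.0 on Rnor_6.0, summed them to genes and deposited log2 values, the DESeq2 rlog transform, for 20375 genes, of which 2591 have no symbol. A table of the whole series repeats the same 15 columns (0 values differ) and was not used. Counts were not used here, so counting intervals and per-library depth are unknown here.

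Genes with a mean of at least 3.32 (a value of 10 before the log) were tested in limma 3.58.1 (R 4.3.3, trended empirical Bayes) on 5 group means with all 15 libraries, and 11 contrasts were taken. A gene was called at a Benjamini-Hochberg adjusted p under 0.05 over all 15424 genes and a log2 difference beyond 1, without a replicate block. Intervals are 95% and unadjusted. The fit was tested on simulated data. The members, 19 context lists (150 genes, 146 with a row, 137 tested) and tests were chosen with earlier results of these data known. Named genes were the 8 members, up to 4 of a list with the smallest adjusted p in sham minus NT, and the 3 genes most like each member. Alternatives were the call rule, filter, libraries fitted, replicate block, scaling and each library left out.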

Additional observations from a re-analysis of the deposited data

How the results depend on the processing

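No difference that passed the test in either fit changed sign, while 55 of 2072 differences of single members did so without passing, among them Gfap, Nes, Serpina3n and Ednrb in DPSC minus sham. Of 270 counts of members called under an alternative, 255 stayed within 1.5 times and 15 moved. With only the libraries of the groups compared, sham minus NT had 6 members (Nes, Serpina3n and Ednrb added) and MSC minus sham 1 (Nes). With MSC-EPO replicate 3 and DPSC replicate 2 both left out, which was chosen after seeing the data, the counts were 5 in sham minus NT, 3 in MSC minus sham, 2 in MSC-EPO minus sham, 2 in DPSC minus MSC, 2 in DPSC minus MSC-EPO and 1 for the mean of the cell groups minus sham. With MSC replicate 1 and MSC-EPO replicate 3 both left out, also chosen after seeing the data, they were 5 in sham minus NT, 7 in DPSC minus NT, 1 in MSC-EPO minus sham and 1 for the cell groups minus sham. Leaving out one library at a time gave 3 to 4 in sham minus NT, 8 to 8 in MSC minus NT and 5 to 8 in MSC-EPO minus NT. In DPSC minus NT the count was 3 to 6, with 3 when NT replicate 3 was left out. It gave 0 to 1 in MSC minus sham (1 without MSC replicate 3, Lcn2), 0 to 1 in MSC-EPO minus sham and 0 to 1 for the cell groups minus sham (1 in both without MSC-EPO replicate 3, Serpina3n), and 0 to 0 in the other 4 comparisons. The cause of these moves was not tested, except that a fit with other libraries has another estimate of the spread.

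Of 2072 differences of single members, 2019 kept their side of the threshold, 49 came to pass and 4 ceased to pass. The 4 were Edn2 in DPSC minus NT under quantile normalization (0.96), Vim in DPSC minus NT without NT replicate 3 (adjusted p = 0.0523, limma), and Serpina3n in MSC-EPO minus NT with only those groups fitted (limma adjusted p = 0.0892) or without MSC-EPO replicate 2 (adjusted p = 0.0555). Gfap, Lcn2 and Edn2 in sham minus NT passed in every alternative run, Edn2 most narrowly without NT replicate 3 (limma adjusted p = 0.0461).

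The replicate numbers pair no animals in the labels, and libraries of the same number deviated together in some groups only: over 30 pairs from different groups the correlation of deviations from the group means ran from -0.441 to 0.653, with 12 over 0.1, against 19 over 0.1 in 60 pairs of different numbers. The highest values of the same number were among replicates 3 (0.653 for MSC-EPO with DPSC, 0.478 for MSC with DPSC and 0.433 for NT with MSC), but the highest of all was of different numbers (0.681 for MSC-EPO replicate 1 with DPSC replicate 2), and not every library was most like one of its own number, NT replicate 1 being closest to DPSC replicate 2 (0.281). A fit with the replicate block called 4 in sham minus NT, 8 in MSC minus NT, 6 in MSC-EPO minus NT, 6 in DPSC minus NT and 0 in the other comparisons, each within 1.5 times of the count without it. Its single additions were Ednrb in sham minus NT and Nes and Ednrb in DPSC minus NT (limma adjusted p = 0.0467, 0.0318 and 0.0191).

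With 3 libraries a group and no counts, small differences between the cell groups and sham cannot be resolved. Larger ones did not pass either with all libraries, such as those of Serpina3n in MSC (4.72-fold) and MSC-EPO (5.34-fold). The intervals in the report give the range left.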
